A study of Caenorhabditis elegans with 40 samples.

Results

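Oxidative phosphorylation in *C. elegans* needs proteins from both the mitochondrial genome (mtDNA) and the nuclear chromosomes, and 37 genes of the pathway were followed here among the 19934 genes quantified. They were chosen by symbol as annotated on WBcel235. All 12 protein genes of the mtDNA were included, 7 of complex I (*nduo-1* to *nduo-6* and *ndfl-4*), 1 of complex III (*ctb-1*), 3 of complex IV (*ctc-1* to *ctc-3*) and 1 of complex V (*atp-6*). The 25 nuclear genes comprised 8 of complex I, 5 of complex II, 3 of complex III and 9 of complex V. By chromosome, 8 of the nuclear genes lay on I, 3 on II, 5 on III, 2 on IV, 3 on V and 4 on X.

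RNA from entire L3 larvae was sequenced in 40 samples from 12 groups and 4 batches, to ask how loss of SMC complexes (cohesins and condensins, the ring-shaped complexes that fold chromosomes) changes transcript levels. All groups carried the transgene *hsp-16.2p::TEV*, which makes the TEV protease after heat shock, and all were shifted to 34 °C for 30 min after 3 h on food and collected 19 h later at 22 °C. The kleisin, the subunit that closes an SMC ring, was cut wherever it carried a TEV cleavage site. Each group was compared with the control of its own batch.

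In batch 1, SCC-1 cleavage (*scc-1(ubs19[FLAG-TEVcs])*, the mitotic cohesin kleisin), DPY-26 cleavage (*dpy-26(ubs4[FLAG-TEVcs])*, the kleisin of condensin I and of the dosage compensation condensin on X) and KLE-2 cleavage (*kle-2(ubs14[FLAG-TEVcs])*, the condensin II kleisin) were set against the TEV control, which has no cleavage site, with 4 samples in each group. In batch 2, COH-1 cleavage (*coh-1(ubs26[FLAG-TEVcs])*, a cohesin kleisin of somatic cells) and double cleavage of COH-1 and SCC-1 were set against a TEV control, with 3 samples each. In batch 3 every group was on 1 mM auxin and had 3 samples. DPY-26 cleavage with SDC-3 degradation carried *dpy-26(ubs4)*, the auxin-inducible degron allele *sdc-3(ubs20[N-term AID])* and *eft-3p::TIR1*, the plant F-box protein that auxin needs in order to degrade a tagged protein. Its control was the TIR1 auxin control, with TIR1 and TEV only, which was in turn compared with a TEV auxin control that lacked TIR1. In batch 4, *sdc-3(ubs20[N-term AID])* animals with TIR1 were grown with 1 mM auxin or without it, 3 samples each, and SDC-3 is a protein that recruits the dosage compensation complex to X. Each genotype was represented by a single strain, and the *eft-3* promoter drives TIR1 in most somatic tissues. The labels do not say that replicates came from separate cultures, so p-values measure only the spread between these samples.

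Complexes I to IV pass electrons from NADH and succinate to oxygen. Complexes I, III and IV pump protons across the inner mitochondrial membrane, and complex V, the ATP synthase, uses the resulting gradient to make ATP. Complex II is the only one built from nuclear proteins alone, and mtDNA supplies the membrane-embedded cores of the others. The genes *gas-1*, *mev-1*, *isp-1* and *nuo-6* are well known in *C. elegans* because their mutants alter life span and sensitivity to oxygen or anaesthetics.

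Between 20460404 and 88427247 reads were assigned to transcripts per sample, with a median of 38087560. Cleavage and degradation act on the proteins, whose loss mRNA does not measure. The mRNA of *dpy-26* was lower after DPY-26 cleavage (log2 fold change -0.69, adjusted p = 0.00114, edgeR) and after DPY-26 cleavage with SDC-3 degradation (-0.72, adjusted p = 0.00751, edgeR), that of *kle-2* after KLE-2 cleavage (-0.69, adjusted p = 0.0327, edgeR) and that of *scc-1* after the double cleavage (-0.71, adjusted p = 0.0187, edgeR). The other target mRNAs were not called in their own comparisons, with -0.35 for *scc-1* after SCC-1 cleavage (adjusted p = 0.0625, edgeR), -0.23 and -0.13 for *coh-1* after COH-1 and after the double cleavage, and 0.10 and 0.15 for *sdc-3* with and without DPY-26 cleavage. Chosen markers of germline, body wall and pharyngeal muscle, intestine, neurons and hypodermis all passed the filter on low counts in every comparison, and none was at 0 throughout a group. Libraries stood apart in the share of reads on the 12 mtDNA genes. That share was 0.0667% in replicate 3 of KLE-2 cleavage and 0.0284% in replicate 3 of the SDC-3 degron without auxin, against 0.232% to 1.18% in every other sample. In batches 2 and 3, replicate 1 of every group had the lowest share of its group, between 0.232% and 0.299%. Replicate 2 of every group there had the highest, between 0.551% and 1.08%. The 25 nuclear genes took up between 1.22% and 1.835% of reads in all 40 samples, with the highest value in the same KLE-2 library. Those 2 libraries also had the highest summed level of body wall muscle markers of their groups, at 24900 and 24670 CPM (reads scaled to a common library size). The same was true of intestine markers (3552 and 3380 CPM) and neuronal markers (1457 and 1554 CPM). For germline, pharyngeal muscle and hypodermis markers it did not hold for both. Their scaling factors (TMM) were the lowest of the 40 samples, 0.6801 and 0.7588, and a low factor raises the CPM of every gene in a library. Results that rest on these 2 libraries are given below with and without them.

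Transcript levels of different genes were compared in TPM, which scales reads by effective length and library. The mtDNA genes spanned the whole range of the 37. *ctc-1*, which encodes subunit I of cytochrome c oxidase, had a median of 3397 TPM over the 40 samples (204.2 to 4871), the 56th highest median of all genes. *ctc-3* had a median of 3291 TPM and *ctb-1*, cytochrome b, of 2564 TPM. At the other end, *ndfl-4*, the small membrane subunit ND4L of complex I, had a median of 5.53 TPM, and *nduo-3*, *nduo-2* and *nduo-6* had 10.9, 20.6 and 32.0 TPM. Among nuclear genes the catalytic subunits of the ATP synthase were the most abundant, with a median of 1020 TPM for *atp-2* (subunit beta, 683.2 to 1919) and 983.4 TPM for *atp-1* (subunit alpha). The stalk subunits *atp-5*, *atp-3* and *atp-4* had medians between 820.6 and 954.2 TPM, close to the 825.5 TPM of mtDNA-encoded *atp-6*. Nuclear genes of complexes I to III were lower, from 362.3 TPM for *cyc-1* (cytochrome c1) and 336.4 TPM for *nuo-6* to 59.7 TPM for *nuo-5* and 6.85 TPM for *sdha-2*. In each of the 3 paralog pairs the X-linked copy had the higher median. *asb-2* had 598.3 TPM against 42.1 TPM for *asb-1* (subunit b of the ATP synthase), *asg-2* had 532.7 TPM against 219.0 TPM for *asg-1* (subunit g), and *sdha-1* had 79.3 TPM against 6.85 TPM for *sdha-2* (the flavoprotein of complex II). The effective lengths that Salmon gave mtDNA genes were far under their annotated lengths, such as 163.5 to 331.0 of 873 bases for *nduo-1*, and a shorter effective length gives a higher TPM for the same reads. The library kit captures RNA by its poly(A) tail, so the level of an mtDNA transcript and the share of it that has a tail cannot be told apart.

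**Figure D1:**
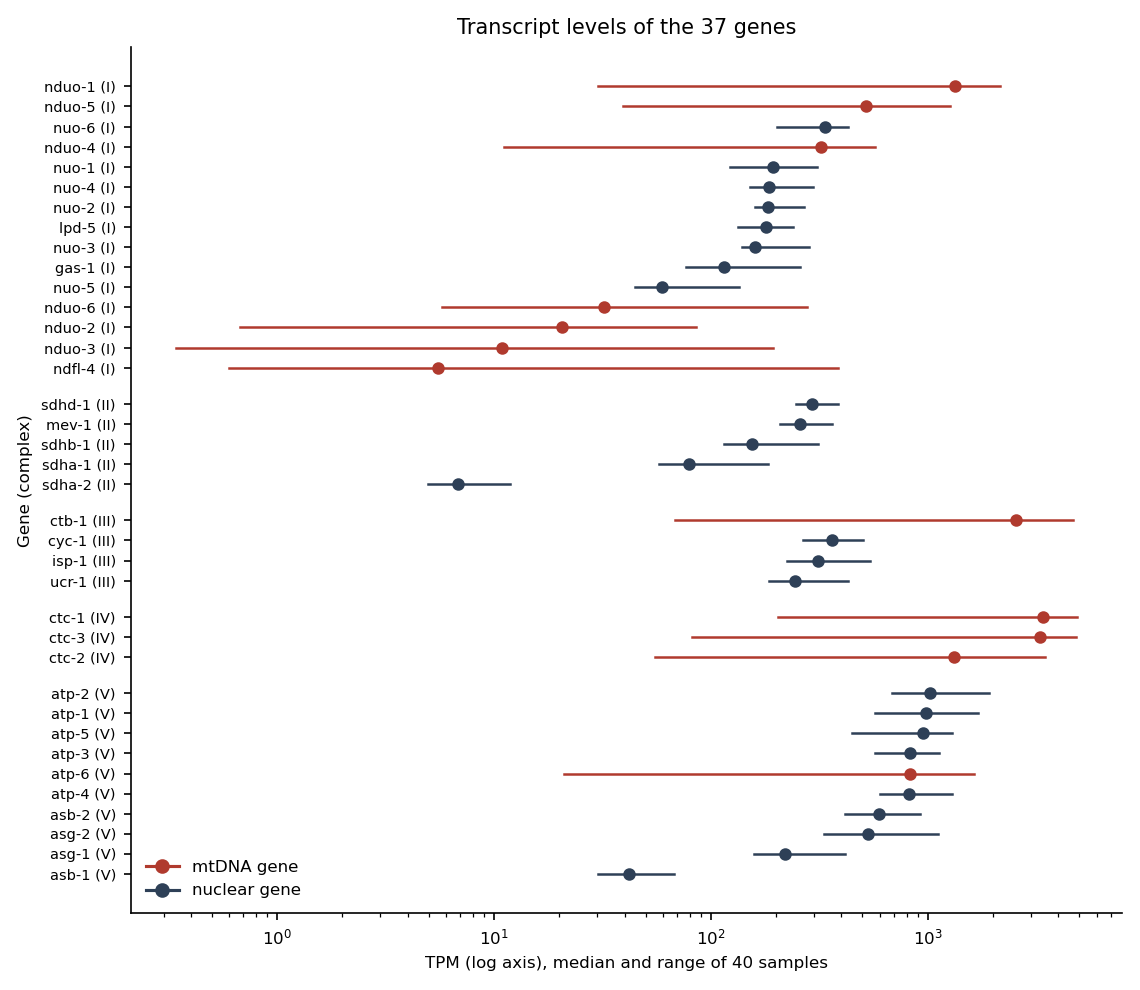
Transcript level in TPM (log axis) of each of the 37 genes, grouped by complex, with the median over 40 samples as a point and the lowest to highest sample as a line, mtDNA genes in red and nuclear genes in a dark colour. Lines of mtDNA genes are long, such as 204.2 to 4871 TPM for *ctc-1*, while *atp-2* runs from 683.2 to 1919 TPM. The lowest *ctc-1* value is that of replicate 3 of the SDC-3 degron without auxin.

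The 2 genomes differed in how far their transcripts varied between samples. In CPM, scaled with TMM factors over all 40 samples, the highest sample exceeded the lowest 1.43-fold (*nuo-4*) to 4.26-fold (*atp-4*) for nuclear genes and 18-fold (*nduo-5*) to 446-fold (*nduo-3*) for mtDNA genes. The highest *atp-4* value and the lowest *nduo-5* and *nduo-3* values came from the 2 libraries that stood apart. Without these libraries *atp-4* ran from 225.3 to 417.3 CPM and *nduo-5* from 166.6 to 516.0 CPM. In the same samples *nduo-3*, with few reads, ran from 0.168 to 31.21 CPM. Part of this spread lay between batches and was unequal among the mtDNA genes. *nduo-3* made up a median of 0.200% of mtDNA reads in batch 1, and 0.00699%, 0.00821% and 0.0120% in batches 2, 3 and 4. For *nduo-6* these shares were 0.646%, 0.150%, 0.153% and 0.0430%, and for *ndfl-4* 0.0739%, 0.00537%, 0.00543% and 0.00234%. *ctc-2*, by contrast, held 12.4%, 7.74%, 5.63% and 6.5% of mtDNA reads in batches 1 to 4, and *nduo-1* was lowest in batch 1, with 5.94%, 9.43%, 10.6% and 6.44%. The TEV control was the only group present in more than 1 batch, so levels were compared within batches only.

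**Figure D2:**
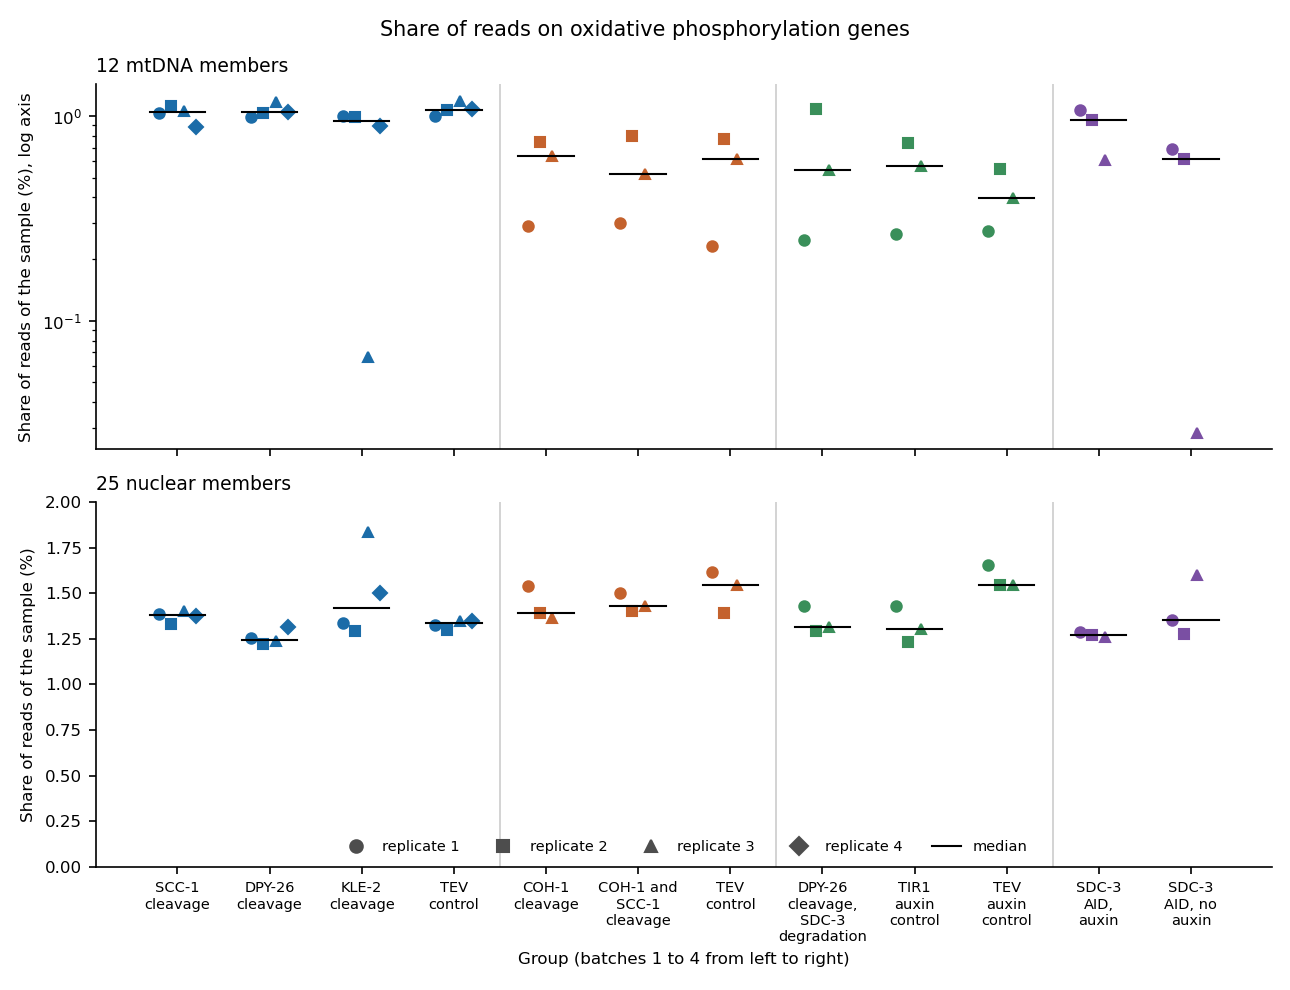
Share of each sample's reads on the 12 mtDNA genes (top, log axis) and on the 25 nuclear genes (bottom), in percent, by group, with a symbol per replicate and a bar at the group median. Replicate 3 of KLE-2 cleavage and of the SDC-3 degron without auxin lie far under the other samples in the top panel (0.0667% and 0.0284%), while nuclear shares stay between 1.22% and 1.835%.

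After DPY-26 cleavage the 4 X-linked genes among the 37 were upregulated, by 1.34- to 1.46-fold, and 6 of the 21 autosomal genes were downregulated, while no mtDNA gene passed the test. These 10 of 37 genes (adjusted p under 0.05, edgeR) stood beside 27.5% of all 14340 genes called in that comparison. On X 67.7% of all genes tested were called higher, with a median log2 fold change of 0.61 over 2224 X-linked genes, and among autosomal genes 14.1% were called lower.

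The X-linked *asg-2* lies at X:6841258-6842121 on the plus strand (WBcel235). It had 409.3, 425.6, 414.0 and 383.6 CPM after DPY-26 cleavage, against 280.2, 285.6, 274.5 and 270.2 CPM in the TEV control. Every cleavage sample was above every control sample, and the log2 fold change was 0.55 (SE 0.06, adjusted p = 0.000645, edgeR). *gas-1* (X:15586786-15590397, minus strand) encodes a core subunit of complex I. It had 407.0, 403.4, 391.5 and 399.7 CPM after DPY-26 cleavage, against 284.5, 294.5, 275.3 and 281.2 CPM in the control. Its log2 fold change was 0.49 (SE 0.06, adjusted p = 0.000806, edgeR), again without overlap. *asb-2* (X:4469766-4471476, plus strand) had 1121, 1048, 1029 and 1119 CPM after DPY-26 cleavage and 735.2, 748.2, 712.3 and 774.8 CPM in the control. It rose by 0.53 on the log2 scale (SE 0.07, adjusted p = 0.00107, edgeR), and the groups did not overlap. *sdha-1* (X:8542757-8546021, minus strand) had 413.9, 358.2, 374.9 and 422.1 CPM after DPY-26 cleavage, against 290.6, 290.5, 286.0 and 295.2 CPM in the control. Its log2 fold change was 0.43 (SE 0.07, adjusted p = 0.0041, edgeR), with the cleavage samples more spread than the controls but all above them. The 4 calls held whichever of the 8 libraries was left out. When every group of batch 1 entered 1 fit, only *asb-2* was called (adjusted p = 0.0469, edgeR), and all 4 genes were called again once replicate 3 of KLE-2 cleavage was removed from it.

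The autosomal paralogs of these genes were not called, and their log2 fold changes were under 0. *asb-1*, known for its role in the germline, had 44.92, 51.59, 49.09 and 50.16 CPM after DPY-26 cleavage, against 55.18, 55.0, 52.99 and 52.1 CPM in the control (log2 fold change -0.14, adjusted p = 0.117, edgeR). *asg-1* had 65.98, 71.89, 71.7 and 70.78 CPM after DPY-26 cleavage and 78.16, 83.51, 73.93 and 79.3 CPM in the control (-0.17, adjusted p = 0.0713, edgeR, and 0.0431 with DESeq2). *sdha-2* had 22.81, 26.7, 24.89 and 22.95 CPM after DPY-26 cleavage and 27.44, 25.23, 27.04 and 25.04 CPM in the control, which overlapped (-0.11, adjusted p = 0.266, edgeR). Shares within each pair differed accordingly. *asb-1* held 5.91% ± 0.505 of the summed TPM of its pair after DPY-26 cleavage and 9.28% ± 0.341 in the control, and *asg-1* held 23.9% ± 1.83 and 34.4% ± 1.22 (SD, n = 4 each). *sdha-1* held 92.6% ± 1.1 of the summed TPM of its pair after DPY-26 cleavage and 89.6% ± 0.540 in the control. Salmon divides reads that match both members of a pair, so the split is an estimate.

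All 21 autosomal genes had log2 fold changes under 0 after DPY-26 cleavage, with a median of -0.14, beside a median of -0.07 over all autosomal genes. The 6 that passed the test were described after their values were seen. *atp-2* had 2873, 2552, 2444 and 2859 CPM after DPY-26 cleavage, against 3346, 3332, 3114 and 3396 CPM in the control (log2 fold change -0.31, adjusted p = 0.0272, edgeR). *atp-1* had 2518, 2176, 2173 and 2553 CPM after cleavage and 3006, 2904, 2690 and 2989 CPM in the control (-0.31, adjusted p = 0.0332, edgeR). Neither overlapped, and the cleavage samples fell into a higher and a lower pair in both genes. *ucr-1* (a core protein of complex III), *cyc-1*, *atp-5* and *nuo-4* fell by 0.21 to 0.22 on the log2 scale, with adjusted p between 0.0331 and 0.0418 (edgeR). These 6 calls depended on the libraries used. None of the autosomal genes was called without replicate 1, 2 or 4 of the TEV control or without replicate 2 or 3 of DPY-26 cleavage, 2 were called without replicate 1 of DPY-26 cleavage, and 5 without replicate 3 of the control or replicate 4 of DPY-26 cleavage. Of 8 body wall muscle markers 3 fell in the same comparison, with summed levels of 12310 to 15360 CPM after DPY-26 cleavage and 14270 to 16350 CPM in the control. Of 6 intestine markers 2 fell, with sums of 1538 to 2132 CPM after DPY-26 cleavage and 1861 to 2085 CPM in the control. In RNA from entire animals fewer cells of a type and less RNA per cell cannot be told apart. The part of these tissues in the result was not tested. For the 12 mtDNA genes the median log2 fold change was -0.04 (0.00238 with library totals in place of TMM factors), and 0 were called by edgeR. At an unadjusted p under 0.05, which 40.5% of all genes reached, 1 was lower, and DESeq2, which called 31.7% of all genes, called 1 lower.

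**Figure D3:**
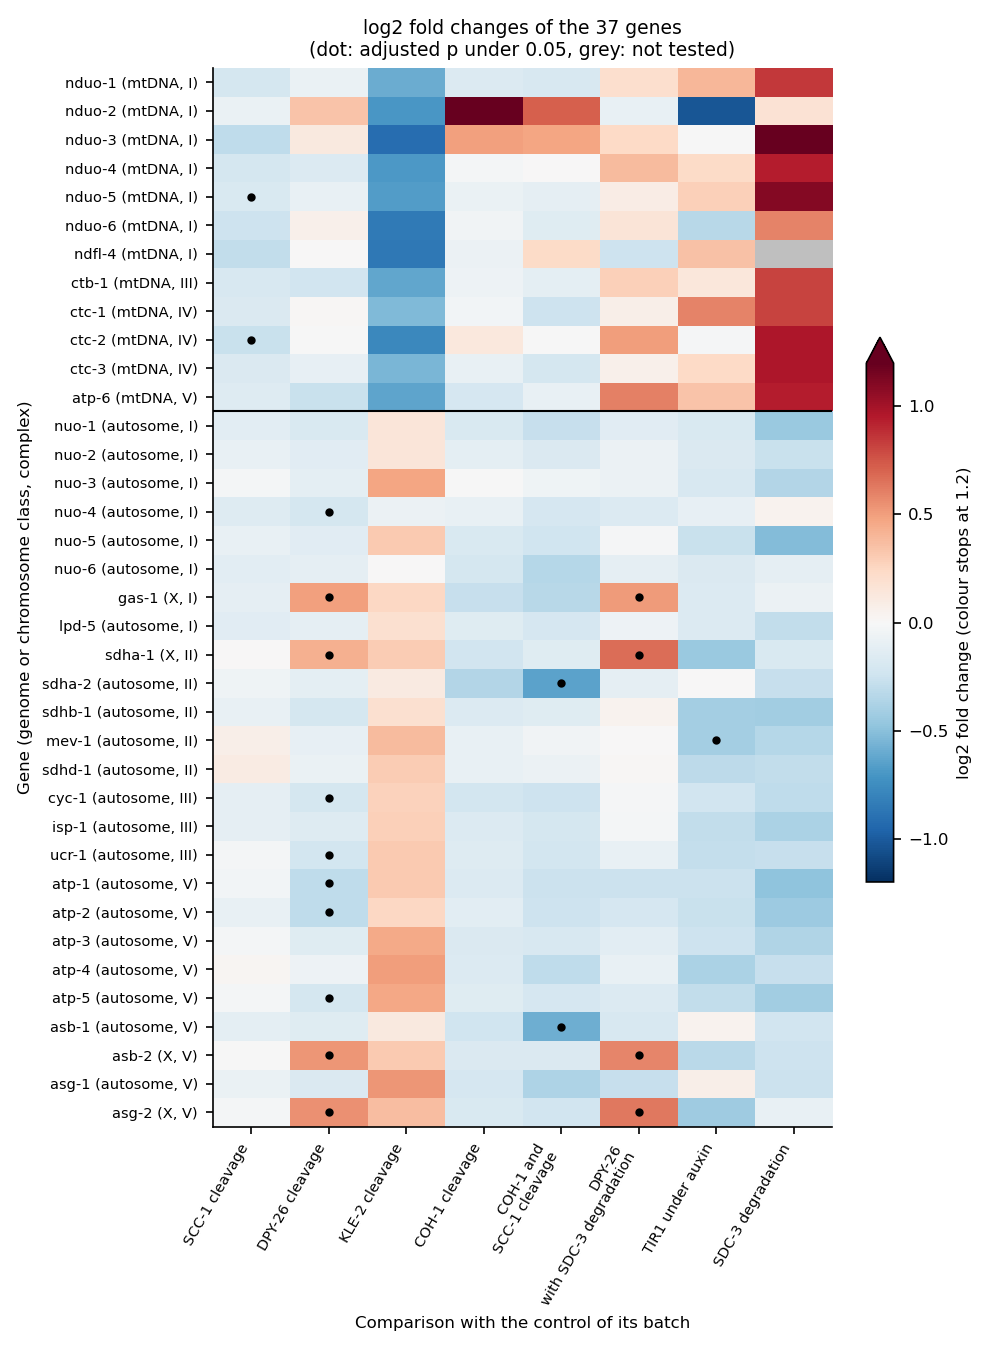
log2 fold change of each of the 37 genes (rows) in 8 comparisons with the control of the batch (columns), with a dot where the adjusted p is under 0.05, grey for *ndfl-4*, which was not tested in SDC-3 degradation, and a colour scale that stops at 1.2 (the highest value is 2.56). Dots in the DPY-26 columns mark *gas-1*, *sdha-1*, *asb-2* and *asg-2* as higher, and the mtDNA genes of the KLE-2 and SDC-3 columns are strongly coloured without a dot.

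DPY-26 cleavage with SDC-3 degradation upregulated the same 4 X-linked genes against the TIR1 auxin control, by 1.43- to 1.59-fold, and no other of the 37 genes. The 4 of 37 genes called stood beside 14.7% of all genes, and 49.6% of the 2176 X-linked genes tested were called higher, with a median log2 fold change of 0.58. *asg-2* had 357.6, 324.2 and 361.4 CPM after the combined treatment, against 225.7, 229.8 and 220.3 CPM in the TIR1 auxin control (log2 fold change 0.63, SE 0.09, adjusted p = 0.00588, edgeR). *asb-2* had 1081, 1089 and 1118 CPM after the combined treatment and 728.5, 753.9 and 710.5 CPM in the control (0.59, SE 0.10, adjusted p = 0.0086, edgeR). Neither gene overlapped between the groups, and both calls held without any 1 of the 6 libraries. *gas-1* had 444.5, 384.9 and 373.8 CPM after the combined treatment, against 302.4, 268.5 and 273.5 CPM in the control (0.51, SE 0.11, adjusted p = 0.0182, edgeR). *sdha-1* had 473.0, 381.5 and 377.4 CPM after the combined treatment and 304.5, 238.1 and 234.3 CPM in the control (0.67, SE 0.14, adjusted p = 0.0201, edgeR). In both genes replicate 1 was the highest sample of either group, and the groups did not overlap. These 2 calls held without replicate 1 of the TIR1 auxin control and were lost without any other library, with adjusted p between 0.0538 and 0.0865 (edgeR).

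The control mattered for these genes. In the TIR1 auxin control these 4 genes were lower than in the TEV auxin control, though 0 of them were called. *asg-2* had 225.7, 229.8 and 220.3 CPM against 285.4, 335.0 and 292.8 CPM (log2 fold change -0.43, adjusted p = 0.0525, edgeR). For *sdha-1* and *asb-2* the difference was -0.45 (adjusted p = 0.108, edgeR) and -0.32 (adjusted p = 0.17, edgeR), and for *gas-1* -0.16 (adjusted p = 0.465, edgeR). These lower values were not particular to X. Of the 21 autosomal genes 18 were under 0 as well (median -0.25), and all 2129 X-linked genes tested had a median of -0.00801. When DPY-26 cleavage with SDC-3 degradation was compared with the TEV auxin control instead, 0 of the 4 X-linked genes were called by edgeR (log2 fold changes 0.18 to 0.34) and 6 autosomal genes were lower. Of these 4 genes 1, *gas-1*, was higher at an unadjusted p under 0.05. The share of all genes called in that fit is not given here, so these counts have no background to be read against.

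The autosomal paralogs were again not called. *asb-1* had 44.71, 42.9 and 46.54 CPM after DPY-26 cleavage with SDC-3 degradation, against 55.23, 53.46 and 44.53 CPM in the TIR1 auxin control (log2 fold change -0.19, adjusted p = 0.267, edgeR). *asg-1* had 71.94, 59.38 and 69.79 CPM after the combined treatment and 82.7, 82.32 and 78.96 CPM in the control, without overlap (-0.28, adjusted p = 0.102, edgeR). *sdha-2* had 19.67, 18.8 and 19.06 CPM after the combined treatment and 23.03, 20.04 and 18.84 CPM in the control (-0.11, adjusted p = 0.543, edgeR). Of the 21 autosomal genes, 0 were called by edgeR or DESeq2, where edgeR called 4.07% of all autosomal genes lower, and 1 was lower at an unadjusted p under 0.05, which 30.7% of all genes reached. None of the 12 mtDNA genes was called by either tool or at an unadjusted p under 0.05. These counts come from fits without a replicate term. With the replicate number as a block *ctc-2* was called higher and *asg-1* lower (edgeR). The share of reads on the 12 mtDNA genes ran from 0.249% to 1.08% after the combined treatment and from 0.266% to 0.736% in the TIR1 auxin control, so that the groups overlapped.

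Degradation of SDC-3 alone gave no call among the 36 genes tested, beside 1.27% of all genes called. Only *ndfl-4* missed the filter, with 2 to 9 reads per sample. At an unadjusted p under 0.05, which 22% of all genes reached, 1 gene was higher and 2 were lower, and DESeq2, which called 11.7% of all genes, called 1. The X-linked genes gave 294.1, 295.1 and 304.2 CPM with auxin, against 274.0, 256.3 and 411.8 CPM without auxin, for *gas-1* (log2 fold change -0.07, adjusted p = 0.848, edgeR), and 274.6, 278.0 and 291.1 CPM with auxin, against 250.5, 270.9 and 379.6 CPM without auxin, for *asg-2* (-0.09, adjusted p = 0.783, edgeR). *asb-2* had 871.2, 770.6 and 840.8 CPM with auxin and 853.9, 763.6 and 1350 CPM without (-0.25, adjusted p = 0.539, edgeR), and *sdha-1* had 284.8, 284.8 and 262.3 CPM with auxin and 288.0, 243.4 and 413.6 CPM without (-0.18, adjusted p = 0.624, edgeR). In all 4 genes replicate 3 without auxin was far above its group. When that library was left out the values became 0.15 for *gas-1*, 0.09 for *asg-2*, 0.02 for *asb-2* and 0.05 for *sdha-1*, beside a median of 0.14 over all X-linked genes in the comparison with every library.

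**Figure D4:**
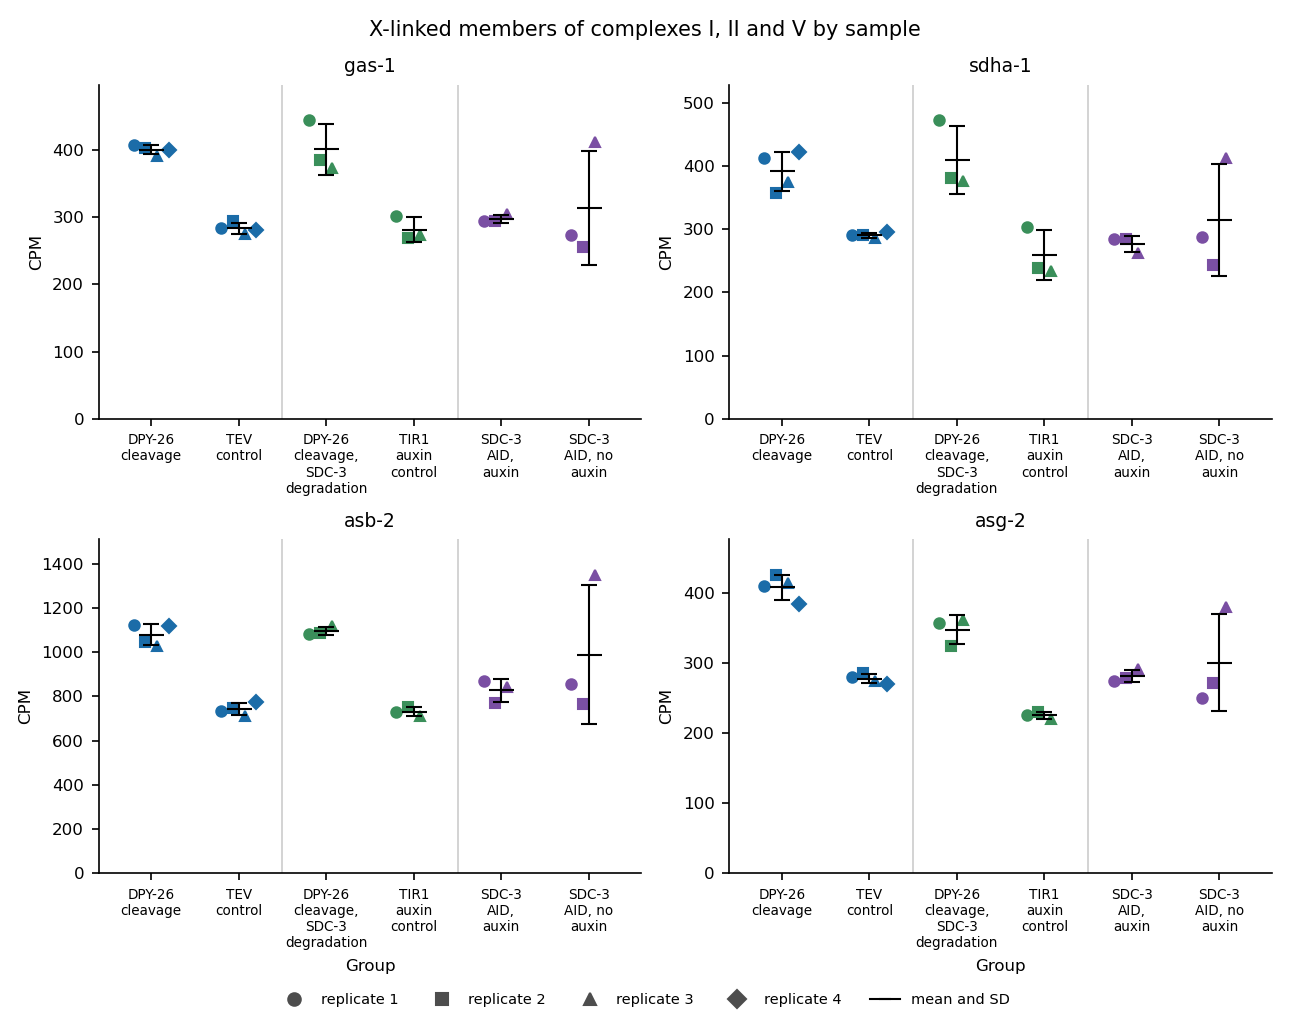
CPM of the X-linked genes *gas-1*, *sdha-1*, *asb-2* and *asg-2* in each sample of 3 comparisons, treated or cleaved group left of its control, with a symbol per replicate and the mean and SD as bars. DPY-26 cleavage with or without SDC-3 degradation lies above its control in all 4 panels (*asg-2* 383.6 to 425.6 against 270.2 to 285.6 CPM), while samples with SDC-3 degradation lie among those without auxin, of which replicate 3 is the highest.

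The mtDNA genes had log2 fold changes above 0 with SDC-3 degradation in 11 of 11 tested (median 0.94), and the nuclear genes under 0 in 24 of 25 (median -0.30), but both values rested on replicate 3 without auxin, and became 0.40 and -0.13 when it was left out. With library totals the nuclear median was -0.08. *nduo-3*, the mtDNA gene with the smallest p, had 1.23, 1.61 and 0.747 CPM with auxin, against 0.197, 0.329 and 0.0700 CPM without, from 26 to 42 reads with auxin and 2 to 9 reads without. Its groups did not overlap, and the log2 fold change was 2.56 (SE 0.54, adjusted p = 0.0666, edgeR). Without that library, *nduo-3* (2.14, adjusted p = 0.048) and *nduo-5* (0.61, adjusted p = 0.0489) were called by edgeR, and over the alternatives in which it was tested the adjusted p of *nduo-3* ran from 0.00352 to 0.188. *nduo-5* had 267.0, 339.7 and 263.3 CPM with auxin and 192.6, 183.4 and 28.65 CPM without. The nuclear gene with the smallest p, *nuo-5*, a core subunit of complex I, had 233.5, 234.2 and 230.7 CPM with auxin and 298.6, 258.0 and 448.4 CPM without (-0.52, adjusted p = 0.203, edgeR). The summed level of 6 hypodermis markers, several of them cuticle collagens, was 383.8 to 1216 CPM with auxin and 3255 to 4394 CPM without, with 0 of 6 called, and its part in these values was not tested.

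With TIR1 under auxin 1 of the 37 genes was lower, beside 14.4% of all genes called. *mev-1*, the cytochrome b subunit of complex II, had 132.1, 129.8 and 127.4 CPM in the TIR1 auxin control, against 165.8, 186.9 and 166.4 CPM in the TEV auxin control (log2 fold change -0.41, SE 0.11, adjusted p = 0.0456, edgeR). The groups did not overlap, but the call was lost without any 1 of the 6 libraries (adjusted p 0.0654 to 0.14, edgeR), and over all alternatives its adjusted p ran from 0.00894 to 0.14. Without replicate 1 of the TIR1 auxin control 2 other genes of complex II were called lower, *sdhb-1* (adjusted p = 0.0404, edgeR) and *sdha-1* (adjusted p = 0.0379, edgeR). Nuclear genes had a median log2 fold change of -0.25, with 22 of 25 under 0, and took up 1.24% to 1.43% of reads in the TIR1 auxin control and 1.54% to 1.65% in the TEV auxin control. The mtDNA genes had a median of 0.24, which ran from -0.178 without replicate 2 of the TIR1 auxin control to 0.562 without replicate 2 of the TEV auxin control and was -0.0372 without replicate 1 of the TEV auxin control, with 0 called by edgeR or DESeq2 or at an unadjusted p under 0.05, which 27.1% of all genes reached. With the replicate number as a block *ctc-1* was called higher and more nuclear genes were called lower (edgeR). For 13 of the 37 genes the groups did not overlap, all of them nuclear, beside 32.6% of all genes. Of 6 hypodermis markers 3 were lower in the same comparison, with summed levels of 355.7 to 911.8 CPM in the TIR1 auxin control and 3023 to 5339 CPM in the TEV auxin control, and their part in these differences was not tested.

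Cleavage of SCC-1 lowered 2 mtDNA genes and none of the 25 nuclear genes (adjusted p under 0.05, edgeR), although 29.0% of all 14410 genes were called in the same comparison. *nduo-5*, a proton-pumping subunit of complex I, had 455.4, 451.9, 441.5 and 452.5 CPM after SCC-1 cleavage, against 495.0, 511.5, 491.5 and 516.0 CPM in the TEV control. The groups did not overlap and each was tight, and the log2 fold change was -0.18 (SE 0.05, adjusted p = 0.0285, edgeR). *ctc-2*, subunit II of cytochrome c oxidase, had 1086, 1372, 1143 and 1081 CPM after SCC-1 cleavage, against 1396, 1423, 1425 and 1321 CPM in the control. Replicate 2 of SCC-1 cleavage overlapped with the controls, and the log2 fold change was -0.27 (SE 0.08, adjusted p = 0.0423, edgeR). When 1 library was left out, *nduo-5* was called only without replicate 3 of either group and *ctc-2* only without replicate 2 of SCC-1 cleavage (adjusted p = 0.00567, edgeR), and over all alternatives the adjusted p ran from 2.06e-05 to 0.845 and from 0.00567 to 0.8. In log2 fold change all 12 mtDNA genes were under 0 (median -0.20, beside 0.02 over all genes, and -0.0935 with library totals). Among the 25 nuclear genes 0 were called by edgeR, 2 were lower at an unadjusted p under 0.05, beside 40.2% of all genes, and DESeq2 called 6 lower, beside 33.4% of all genes. Their median was -0.08, and their share of reads was 1.33% to 1.403% after SCC-1 cleavage and 1.299% to 1.347% in the TEV control. With library totals in place of TMM factors neither mtDNA gene was called, and *mev-1* (0.17, adjusted p = 0.0305) and *sdhd-1* (0.20, adjusted p = 0.0428), the membrane anchors of complex II, were called higher by edgeR. Of other markers, 4 of 9 neuronal genes were higher, with summed levels of 1141 to 1227 CPM after SCC-1 cleavage and 1005 to 1056 CPM in the TEV control. Of 4 pharyngeal muscle genes 2 were higher, with sums of 823.3 to 1254 CPM after SCC-1 cleavage and 766.6 to 854.0 CPM in the control. Of 6 hypodermis genes 2 were higher and 1 lower, with sums of 1252 to 3864 CPM after SCC-1 cleavage and 4283 to 5734 CPM in the control, and their part in the result was not tested.

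Set directly against DPY-26 cleavage, SCC-1 cleavage had lower levels of all 4 X-linked genes, in a comparison that called 34.2% of all genes. The log2 fold changes were -0.61 for *gas-1* (adjusted p = 0.000311), -0.59 for *asg-2* (adjusted p = 0.000477), -0.55 for *asb-2* (adjusted p = 0.000654) and -0.44 for *sdha-1* (adjusted p = 0.00378, all edgeR). *atp-1* was higher, with 2919, 2671, 2836 and 3062 CPM after SCC-1 cleavage and 2518, 2176, 2173 and 2553 CPM after DPY-26 cleavage (0.26, adjusted p = 0.0493, edgeR). Of the 12 mtDNA genes 0 were called by edgeR and 2 were lower at an unadjusted p under 0.05, beside 44.9% of all genes. DESeq2 called 2, beside 38.8% of all genes.

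After cleavage of COH-1 alone 0 of the 37 genes were called by edgeR or DESeq2, and in edgeR 1 was lower at an unadjusted p under 0.05. Of all genes edgeR called 0.00719%, and 6.27% reached an unadjusted p under 0.05. DESeq2 called 61 of all genes higher and 59 lower. The authors, who used DESeq2 and left out genes that oscillate in development, reported far more changed genes in these data, most by little. All 25 nuclear genes had log2 fold changes under 0, with a median of -0.17 beside -0.00338 over all genes. The nuclear gene with the smallest p was *gas-1*, with 264.1, 267.7 and 246.9 CPM after COH-1 cleavage, against 335.2, 301.9 and 305.9 CPM in the TEV control (-0.27, SE 0.11, adjusted p = 0.775, edgeR). Its groups did not overlap. Among mtDNA genes *nduo-2* came closest, with 2.86, 5.69 and 13.67 CPM after COH-1 cleavage and 3.641, 1.176 and 4.417 CPM in the control (1.26, SE 0.66, adjusted p = 0.846, edgeR), which overlapped widely. Of 12 germline markers 0 were above 0 and 0 were called (median -0.32). Their summed levels overlapped, with 228.0 to 354.5 CPM after COH-1 cleavage and 292.4 to 430.4 CPM in the control. Of 6 intestine markers 0 were above 0 as well. In the other direction 8 of 9 neuronal, 4 of 4 pharyngeal muscle, 6 of 8 body wall muscle and 4 of 6 hypodermis markers were above 0. In each of these sets 0 were called, and the part of these tissues in the values was not tested.

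Double cleavage of COH-1 and SCC-1 lowered 2 of the 37 genes, *sdha-2* and *asb-1*, which are the less abundant autosomal members of 2 paralog pairs. The 2 of 37 genes stood beside 21.3% of all genes called. *sdha-2* had 14.36, 13.69 and 14.08 CPM after the double cleavage, against 22.82, 23.63 and 19.11 CPM in the TEV control. The groups did not overlap, and the log2 fold change was -0.64 (SE 0.12, adjusted p = 0.0138, edgeR). *asb-1* had 38.76, 32.69 and 32.25 CPM after the double cleavage and 53.31, 56.53 and 45.57 CPM in the control, again without overlap (-0.59, SE 0.12, adjusted p = 0.0207, edgeR). Their X-linked partners were not called. *sdha-1* had 359.7, 310.5 and 303.0 CPM after the double cleavage and 400.1, 311.8 and 358.0 CPM in the control (-0.14, adjusted p = 0.478, edgeR), and *asb-2* had 700.2, 844.9 and 811.4 CPM after the double cleavage and 766.2, 931.3 and 955.1 CPM in the control (-0.18, adjusted p = 0.382, edgeR). *sdha-2* was not called without replicate 1, 2 or 3 of the double cleavage (adjusted p 0.0522 to 0.0615, edgeR), and *asb-1* was not called without replicate 2 or 3 of the double cleavage or replicate 1 of the TEV control (adjusted p 0.0531 to 0.0871, edgeR). Without replicate 2 of the TEV control 4 genes were called, with *asg-1* and *gas-1* added. With the replicate number as a block 8 genes were lower in edgeR, beside 27.6% of all genes, and *asg-1*, *atp-2*, *gas-1*, *nuo-1*, *nuo-6* and *atp-4* joined *sdha-2* and *asb-1*. Samples with the same number deviated together in all 3 pairs but only weakly in 1 of them (correlations of 0.510, 0.0813 and 0.276 across genes). The mtDNA share followed the number, lowest in replicate 1 and highest in replicate 2 in every group of batches 2 and 3. In that share samples with the same number went together, and fits without a replicate term leave this out. What the number shares is not stated, and how far it pairs these samples at other genes was not settled.

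All 25 nuclear genes were under 0 after the double cleavage as well (median -0.22), and the mtDNA genes had a median of -0.10, which ran from -0.483 without replicate 1 of the TEV control to 0.230 without replicate 2 of the TEV control and was 0.0628 with library totals, with 0 called by edgeR, by DESeq2 or at an unadjusted p under 0.05, which 36.9% of all genes reached. Of the 12 germline markers 5 fell (median -0.65), with summed levels of 190.7 to 225.6 CPM after the double cleavage and 292.4 to 430.4 CPM in the TEV control. None of these markers was at 0. Of 6 hypodermis markers 2 fell, with sums of 605.4 to 1563 CPM after the double cleavage and 3001 to 4358 CPM in the control. In the other direction 3 of 4 pharyngeal muscle markers rose (1749 to 2513 CPM after the double cleavage and 1236 to 1407 CPM in the control), and so did 4 of 9 neuronal markers (1498 to 1584 CPM and 1048 to 1174 CPM). The part of these tissues in the values of *asb-1* and *sdha-2* was not tested. The double cleavage and COH-1 cleavage share their TEV control. Set against each other, neither gene passed the test, with log2 fold changes of -0.36 for *asb-1* (adjusted p = 0.0786, edgeR) and -0.29 for *sdha-2* (adjusted p = 0.218, edgeR). Of all 37 genes 0 were called by edgeR or DESeq2 and 1 was lower at an unadjusted p under 0.05, where 10.2% of all genes were called and 26.8% reached that unadjusted p.

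**Figure D5:**
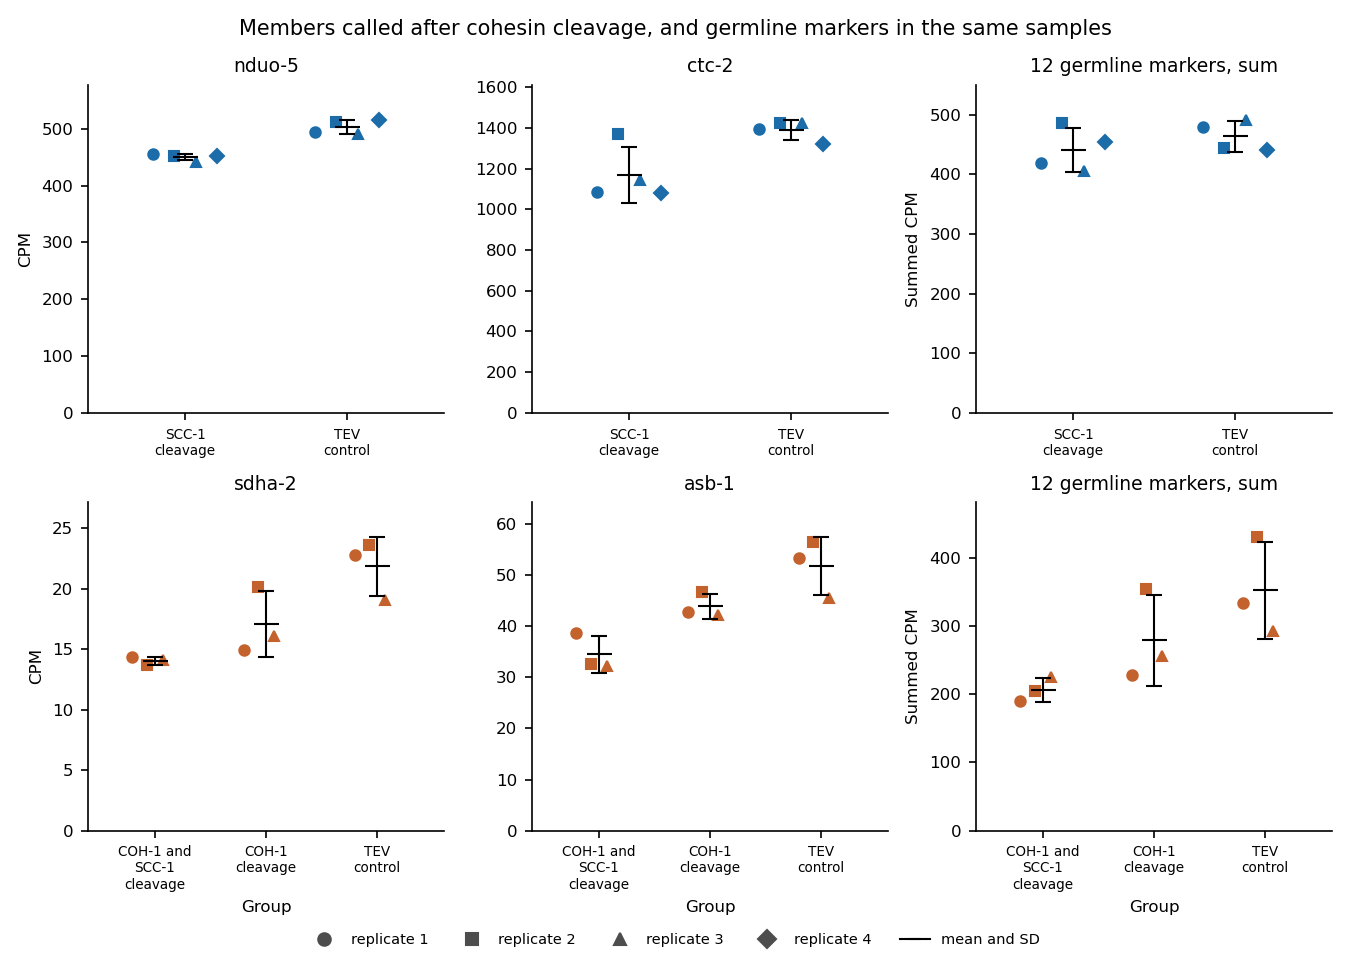
CPM of the genes that passed the test after cohesin cleavage and the summed CPM of 12 germline markers, by sample, with a symbol per replicate and the mean and SD as bars (top, SCC-1 cleavage and TEV control of batch 1, bottom, double cleavage, COH-1 cleavage and TEV control of batch 2). *sdha-2* (13.69 to 14.36 against 19.11 to 23.63 CPM) and *asb-1* are lower after the double cleavage than in the TEV control, and so is the germline sum, whereas the germline sums of SCC-1 cleavage and its control overlap.

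Cleavage of KLE-2 gave no call among the 37 genes by edgeR, by DESeq2 or at an unadjusted p under 0.05, beside 1.17% of all genes called and 15.2% at an unadjusted p under 0.05. The medians were far from 0, -0.68 for mtDNA genes and 0.31 for nuclear genes, and were -0.32 and -0.03 without replicate 3, when 0 of the 37 genes were called by edgeR and 4 of the 12 mtDNA genes were lower at an unadjusted p under 0.05, which 21.9% of all genes reached. *nduo-5* had 444.7, 463.1, 52.93 and 307.6 CPM after KLE-2 cleavage, against 495.0, 511.5, 491.5 and 516.0 CPM in the TEV control (log2 fold change -0.67, SE 0.53, adjusted p = 0.595, edgeR). The groups did not overlap, and replicates 3 and 4 of KLE-2 cleavage were the lowest. *mev-1* had 164.8, 153.8, 312.0 and 177.2 CPM after KLE-2 cleavage and 159.7, 154.4, 146.8 and 153.8 CPM in the control (0.38, SE 0.22, adjusted p = 0.454, edgeR), and without replicate 3 these values were -0.32 for *nduo-5* and 0.10 for *mev-1*. Set directly against KLE-2 cleavage, DPY-26 cleavage gave log2 fold changes of 0.11 to 0.22 for the 4 X-linked genes, with 0 called by edgeR, by DESeq2 or at an unadjusted p under 0.05, in a comparison where 6.88% of all genes were called and 25.1% reached that unadjusted p. Replicate 3 of KLE-2 cleavage was high for them, at 551.3 CPM for *gas-1* and 1453 CPM for *asb-2*. Without it 3 of the 4 were higher after DPY-26 cleavage than after KLE-2 cleavage, *gas-1* (0.57, adjusted p = 0.00769), *asg-2* (0.56, adjusted p = 0.00972) and *asb-2* (0.52, adjusted p = 0.018, all edgeR), where 13.4% of all genes were called, and DESeq2 called *sdha-1* as well (0.42, adjusted p = 0.00933). Against KLE-2 cleavage, SCC-1 cleavage called no gene at all in edgeR (0.0%, with 5.79% at an unadjusted p under 0.05), and 0 of the 37 at an unadjusted p under 0.05 or in DESeq2, and without replicate 3 of KLE-2 cleavage the 37 genes again gave 0 in each of these counts.

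Other nuclear genes of the pathway were counted from lists written from general knowledge. Of 20 further subunits of complexes I to V, 19 were tested. After DPY-26 cleavage 2 of them rose, the X-linked *ucr-2.1* (449.5 ± 21.6 against 275.0 ± 14.1 CPM, SD, n = 4 each, log2 fold change 0.70, adjusted p = 0.00049, edgeR) and *ucr-2.2* (0.50, adjusted p = 0.00218, edgeR), core proteins of complex III, and the autosomal *hpo-18* and *nduf-9* fell. The same 2 X-linked genes were the only ones of this list that rose in DPY-26 cleavage with SDC-3 degradation (0.79 and 0.48). After the double cohesin cleavage *ucr-2.3* (-0.91, adjusted p = 0.0102, edgeR) and *nduf-2.2* (-0.52, adjusted p = 0.0399, edgeR), both on III, fell, and after SCC-1 cleavage *nduf-6* and *nduf-5* did. For comparison, 29.0% of all genes were called in either direction after SCC-1 cleavage, 27.5% after DPY-26 cleavage and 21.3% after the double cleavage. In the citric acid cycle 2 of 16 genes rose after DPY-26 cleavage, both X-linked (*sucl-1* and *idhb-1*, 0.44 and 0.43), and 6 fell, all autosomal, among them *sucl-2* (-0.68), *sucg-1* (-0.57) and *mdh-2* (-0.28). After SCC-1 cleavage *sucg-1* and *sucl-2*, subunits of succinyl-CoA synthetase, were the 2 of 16 that fell (-0.55 and -0.41), and they fell with *idh-2* after the double cleavage (-0.74 and -0.71). Of 8 genes of ubiquinone synthesis 3 fell after SCC-1 cleavage, 3 after DPY-26 cleavage and 3 after the double cleavage, *coq-5* and *coq-8* each time. Of 10 assembly factors 2, 3 and 2 fell in these comparisons.

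Genes whose products express the mtDNA were also counted. Of 70 mitochondrial ribosomal protein genes 45 fell after SCC-1 cleavage (median log2 fold change -0.26) and 34 after the double cleavage (median -0.37), where 29.0% and 21.3% of all genes were called in either direction. After DPY-26 cleavage 11 fell, where 14.1% of autosomal genes were lower. After KLE-2 and COH-1 cleavage, where 1.17% and 0.00719% of all genes were called, 0 of the 70 were called. Of 8 genes that maintain or express mtDNA, 5 fell after SCC-1 cleavage (median -0.35), the translation factors *tufm-1*, *gfm-1* and *tsfm-1*, the single-stranded DNA binding protein *mtss-1* and the X-linked helicase *twnk-1*. The last of these had 8.90 ± 1.32 CPM after SCC-1 cleavage and 24.8 ± 3.88 CPM in the TEV control (SD, n = 4 each, log2 fold change -1.50, adjusted p = 0.000237, edgeR). After DPY-26 cleavage *twnk-1* rose (41.7 ± 6.13 against 24.8 ± 3.88 CPM, 0.74, adjusted p = 0.00535, edgeR) and *rpom-1*, the mitochondrial RNA polymerase, fell (-0.40, adjusted p = 0.00677, edgeR). After DPY-26 cleavage with SDC-3 degradation *twnk-1* was higher as well (17.6 ± 1.62 against 9.04 ± 0.670 CPM, SD, n = 3 each, 0.97, adjusted p = 0.00369, edgeR). The TIR1 auxin control of that comparison was itself lower than the TEV auxin control (9.04 ± 0.670 against 13.25 ± 0.332 CPM, SD, n = 3 each, -0.55, adjusted p = 0.0153, edgeR), and the 2 comparisons share it. After the double cleavage *tufm-1*, *gfm-1*, *tsfm-1* and *mtss-1* fell, 4 of the 8 (median -0.47), by 0.43 to 0.56 on the log2 scale.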

How the data were processed

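Poly(A)-selected RNA was sequenced, and the authors trimmed reads and estimated transcript abundance per lane with Salmon (the submitters' processing notes name cutadapt 2.5, STAR 2.7.9a and Salmon 1.5.2). The deposited files hold an estimated count and a TPM value per transcript. The transcriptome release was not given in the sources used here. Estimated counts were summed over lanes and over the transcripts of each gene and rounded to whole numbers. Lane values of TPM were averaged, and 42938 transcripts gave 19934 genes named with Ensembl release 115 of WBcel235, leaving 41 transcripts with no gene (at most 0.0128% of reads). mtDNA genes were matched by coordinates, and *nuo-3* overlaps another annotated gene on the same strand, so its reads are uncertain. Genes with at least 10 reads in at least 50% of the samples compared were tested with edgeR 4.0.16 (quasi-likelihood, TMM, R 4.3.3) with only the 2 groups of a comparison in the fit, with Benjamini-Hochberg adjustment over every gene tested and a threshold of 0.05. Fold changes come from these fits. CPM values come from 1 TMM scaling over all 40 samples and describe levels. Figures were drawn with matplotlib 3.10.9.

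The 37 genes and the lists were chosen with earlier results of these data known. Values per sample were given, in each comparison with a control, for up to 3 mtDNA and 3 nuclear genes with the smallest p among those called, for paralog pairs with a called member, for X-linked genes where DPY-26 or SDC-3 was lost, and otherwise for the mtDNA and the nuclear gene with the smallest p. Replicates of a group differed by more than sampling noise (chi-square per degree of freedom 24.1 to 407), so none was merged. Deviations from group means of samples with the same replicate number correlated above 0.1 in every pair only for COH-1 cleavage and its control (0.444, 0.586 and 0.511) and for the double cleavage against COH-1 cleavage (0.419, 0.252 and 0.193), as a check from the data, since the labels do not say what a number shares. Alternatives were DESeq2 1.42.0, RLE factors, library totals, scaling from nuclear genes, no filter, a replicate block, all groups of a batch in the fit, another control, 1 library without its additional lane files and each replicate left out. Depth of 20460404 to 88427247 reads per sample limits the mtDNA genes with few reads most. The fitting steps were tested on simulated data.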

Additional observations from a re-analysis of the deposited data

Results flagged for a closer look

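Within groups of 4, a sample far from the others was looked for in 29 sets of values, and 2 were found, where chance gives about 1 in 20. Replicate 3 of KLE-2 cleavage had the lowest share of reads on mtDNA genes, 0.0667%, with a gap to the next sample of 0.887 of the range of the group. The same library had the highest level of *mev-1*, 312.0 CPM, with a gap of 0.852 of the range.

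Effects of SCC-1 cleavage and of DPY-26 cleavage, which share the TEV control of batch 1, differed in a direct test for 5 genes (edgeR). The log2 difference, SCC-1 cleavage over DPY-26 cleavage, was -0.61 for *gas-1*, -0.59 for *asg-2*, -0.55 for *asb-2*, -0.44 for *sdha-1* and 0.26 for *atp-1*.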

How the results depend on the processing

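Of values given for single genes, 385 kept their direction and side of the threshold under an alternative, 56 lost the call, 5 gained it and 8 changed sign. Counts of genes called moved by more than 1.5 times in the cases below. A count without a share of all genes beside it has no background here and shows only how calls depend on the processing. DESeq2 called 9 genes after SCC-1 cleavage (2 in edgeR), beside 33.4% of all genes. After the double cleavage it called 9 (2), where 1745 of all 14049 genes were called higher and 2005 lower. It called 3 with TIR1 under auxin (1) and 1 with SDC-3 degradation (0), the latter beside 11.7% of all genes. Between SCC-1 and DPY-26 cleavage it called 11 (5), of which 5 were autosomal (1), beside 38.8% of all genes. RLE factors gave 5 after the double cleavage, 2 with TIR1 and 0 autosomal genes between SCC-1 and DPY-26 cleavage. Library totals moved the median of all genes by 0.105 after SCC-1 cleavage, 0.16 after the double cleavage, 0.195 with SDC-3 degradation and 0.151 between SCC-1 and KLE-2 cleavage. They gave 1 call after the double cleavage, 0 with TIR1, and 11 between SCC-1 and DPY-26 cleavage, 7 of them autosomal. Under them the mtDNA medians after SCC-1, DPY-26, COH-1 and the double cleavage were -0.0935, 0.00238, 0.052 and 0.0628. With TMM factors these were -0.2, -0.0435, -0.0538 and -0.0998. With library totals the nuclear medians were 0.0243 after SCC-1, -0.0893 after DPY-26, -0.0924 after COH-1 and -0.0592 after the double cleavage, -0.00134 after DPY-26 cleavage with SDC-3 degradation, 0.122 between SCC-1 and DPY-26 cleavage and 0.0237 between the double and COH-1 cleavage. Signs also changed under them for *sdha-1* after the double cleavage (0.0129) and for *asg-2* (0.127), *gas-1* (0.152) and *sdha-1* (0.0457) with SDC-3 degradation, and without replicate 3 of the group without auxin for *asb-2* (0.0178), *asg-2* (0.0940), *gas-1* (0.152) and *sdha-1* (0.0458). No filter on low counts gave 0 calls with TIR1 and 0 autosomal calls between SCC-1 and DPY-26 cleavage. Sums of TPM gave a log2 ratio of mtDNA to nuclear genes of -0.335 after SCC-1 cleavage, against -0.137 in CPM.

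With the replicate block, calls numbered 1 after SCC-1 cleavage, 6 after DPY-26 cleavage (2 autosomal), 8 after the double cleavage, 9 with TIR1 (8 nuclear genes lower and *ctc-1* higher), 1 with SDC-3 degradation (*nduo-3*), 1 autosomal and 1 mtDNA gene (*ctc-2*, 0.42, adjusted p = 0.0411, edgeR) after DPY-26 cleavage with SDC-3 degradation and 0 autosomal and 2 mtDNA genes between SCC-1 and DPY-26 cleavage. Of all genes the block called 27.6% after the double cleavage. It called 1880 higher and 1909 lower of 14410 after SCC-1 cleavage, and 1994 higher and 1301 lower of 14340 after DPY-26 cleavage. The authors mention 3 biological replicate batches for the COH-1 data, but the sources used here do not tie the replicate numbers to batches. Where every pair correlated above 0.1 (COH-1 cleavage against its control, the double cleavage against COH-1 cleavage), the block changed no call. With all groups of a batch in the fit, calls numbered 0 after SCC-1 cleavage, 1 after DPY-26 cleavage (1 X-linked, 0 autosomal), 5 after the double cleavage and 3 with TIR1. Without the additional lane files of replicate 1 of the TIR1 auxin control, 0 genes were called with TIR1. The TEV auxin control in place of the TIR1 auxin control gave 0 X-linked and 6 autosomal calls and a nuclear median of -0.295. Some alternatives were chosen after seeing the data. Leaving out replicate 1 of both groups gave 0 calls after the double cleavage and 0 with TIR1, leaving replicate 3 of KLE-2 cleavage out of the direct comparison gave DPY-26 cleavage 3 calls (all X-linked) with edgeR and 5 (4 X-linked) with DESeq2, against 0, and leaving it out of the batch fit gave 1 call after SCC-1 cleavage. When 1 replicate was left out, calls ran from 0 to 2 after SCC-1 cleavage, 4 to 9 after DPY-26 cleavage (0 to 5 autosomal), 0 to 4 after the double cleavage, 2 to 4 after DPY-26 cleavage with SDC-3 degradation (2 to 4 X-linked, nuclear median -0.126 to -0.0428), 0 to 2 with TIR1 and 0 to 2 with SDC-3 degradation. In the same way the log2 fold changes with SDC-3 degradation ran from -0.401 to 0.0178 for *asb-2*, -0.191 to 0.0940 for *asg-2*, -0.192 to 0.152 for *gas-1* and -0.328 to 0.0458 for *sdha-1*. The cause of these shifts was not tested.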
